A study of Mus musculus with 28 samples.

Results

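The levels of 10 calcium transport genes were followed through every library of the series. They are the plasma membrane sodium-calcium exchangers Slc8a1, Slc8a2 and Slc8a3, the endoplasmic reticulum pump Atp2a2 (SERCA2), the plasma membrane pumps Atp2b1, Atp2b2, Atp2b3 and Atp2b4 (PMCA), and the inositol trisphosphate (IP3) receptors Itpr1 and Itpr2. The genes were picked by symbol, with no threshold on a measured value, and are 10 of the 53342 Ensembl gene identifiers in each count table. All 10 passed the filter on low counts in all 8 comparisons below, so no gene of the group is missing from any count.

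The study deleted 1 gene in astrocytes of C57BL/6J-backcrossed mice and measured RNA from the cerebral cortex. The knockout mice (cKO) carried mGFAP-Cre, in which the mouse Gfap promoter drives the recombinase, and 2 floxed alleles (loxP/loxP), while sex-matched control littermates (Ctrl) were loxP/loxP or loxP/+. Bulk cortex RNA-Seq covered 4 mice per genotype at P24 and 4 per genotype at P17. TRAP-Seq at P24 covered 3 mice per genotype, each giving a whole-lysate library (Input) and a library of RNA bound to pulled-down EGFP-Rpl10a ribosomes (IP). The tagged ribosomes appear only after Cre recombination, so they mark cells in which the Gfap promoter had been active. The labels do not list the driver for the TRAP Ctrl mice, in which tagged ribosomes also need it. Each library came from 1 mouse.

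Calcium leaves a brain cell by 2 main routes, the exchangers, which use the inward sodium gradient, and the ATP-driven PMCA pumps. SERCA2 refills the endoplasmic reticulum, and IP3 receptors release calcium from it after receptor signalling. Itpr2 is known as the main IP3 receptor of astrocytes, and Itpr1, Slc8a2, Atp2b2 and Atp2b3 are known for strong neuronal expression.

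The calcium pumps belong to one protein family, the P-type ATPases, in which an aspartate of a conserved phosphorylation motif takes the phosphate of ATP in each cycle. The 21 coding bases of that motif are shown for 4 of the pumps because they set the pumps apart from the exchangers and receptors. Sequences and positions are from GENCODE vM21 on GRCm38 (mm10), read 5′ to 3′ on the coding strand, and the capitals mark the aspartate codon.
Atp2a2: GATaagacaggcacacttacc
Atp2b1: GATaaaacaggaaccctgacg
Atp2b2: GACaagacaggaacgctgacc
Atp2b4: GATaagacaggcacactgacc

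The aspartate is residue 351 of 1044 in Atp2a2 (chr5:122469374-122469394, minus strand). In the PMCA pumps shown it is residue 475 of 1220 in Atp2b1 (chr10:98999817-98999837, plus strand), 499 of 1243 in Atp2b2 (chr6:113789897-113789917, minus strand) and 466 of 1205 in Atp2b4 (chr1:133731807-133731827, minus strand). The motif was not found in the exchangers or the IP3 receptors, which are not P-type pumps. Over these 21 bases Atp2a2 and Atp2b4 share 20 letters, and Atp2a2 and Atp2b1 share 16, the fewest among the 4 sequences shown.

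Near-identical copies matter for counting, because a read from a stretch that 2 genes share cannot be assigned. Of all pairs among the 10 genes, only Atp2b2 and Atp2b3 share any 50-base window of their annotated transcripts, 7 of the 12727 windows of Atp2b2. These windows form the coding stretch chr6:113789922-113789977 (minus strand), which ends just before the phosphorylation motif.
Shared by Atp2b2 and Atp2b3: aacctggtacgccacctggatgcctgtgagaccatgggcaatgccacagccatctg

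Overlapping genes are a further limit, since the strand setting of the counting is not given in the sources used here. The overlaps below are of whole gene spans, and whether exons overlap was not checked. Slc8a3 (chr12:81197915-81333180, minus strand) is overlapped on the opposite strand by Gm3693, which held 37 to 76 counts per P24 bulk library against 335 to 494 for Slc8a3 itself. In the TRAP libraries Gm3693 held 73 to 183 counts while Slc8a3 held 193 to 244 in IP and 322 to 509 in Input, so the IP level of Slc8a3 and its exchanger share are uncertain to a larger extent. Itpr2 (chr6:146108299-146502223, minus strand) contains the processed pseudogene Gm15720 on its own strand, with 1003 to 1157 counts per P24 bulk library against 1456 to 1720 for Itpr2, so the level of Itpr2 is uncertain. In the TRAP libraries Gm15720 held 405 to 1438 counts, while Itpr2 held 719 to 958 in IP and 884 to 1652 in Input. The IP to Input ratio of Itpr2 and its receptor share are therefore uncertain too. Reads of Itpr1 (chr6:108213096-108551109, plus strand) could be confused with the antisense Gm44040, with 258 to 377 counts beside 5452 to 6805.

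The remaining genes lie at chr17:81373105-81738377 for Slc8a1 (minus strand), chr7:16129826-16161063 for Slc8a2 (plus), chr5:122453513-122502225 for Atp2a2 (minus) and chr10:98914406-99026143 for Atp2b1 (plus). Atp2b2 lies at chr6:113743831-114042613 (minus), Atp2b3 at chrX:73503086-73571005 (plus) and Atp2b4 at chr1:133699457-133801041 (minus).

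Bulk libraries held 8855488 to 14575306 counts and TRAP libraries 18433087 to 27242445, so that 3 counts, the floor used for a gene that was not seen, equal 0.206 to 0.339 CPM in bulk and 0.110 to 0.163 CPM in TRAP. These floors cover counting error only. CPM are counts scaled to a common library size, and all levels are CPM further scaled by TMM factors, a correction for differences in library composition, within each table. All 9 astrocyte markers of the marker list were higher in IP than in Input in both genotypes, and 11 of the 12 neuronal markers were lower, with no marker at 0 in any library. A single TRAP library stood apart for many of the 10 genes, the Input library of cKO replicate 1, and the tests of the 10 genes that use it are given with and without it.

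The first question was how abundant each gene was. In P24 bulk Ctrl cortex, per kb of annotated exon, Atp2a2 had the highest level, 125 ± 2.54 CPM per kb (SD, n = 4). Slc8a2 (82.7 ± 8.60) and Atp2b2 (68.8 ± 3.21 CPM per kb) came next, and their libraries did not overlap each other. Atp2b1 (34.2 ± 0.892) and Atp2b3 (29.8 ± 1.87 CPM per kb) followed, also without overlap. Itpr1 (24.1 ± 1.70) and Atp2b4 (23.8 ± 1.09 CPM per kb) did not differ beyond their spread. The lowest levels were those of Itpr2 (7.90 ± 0.294), Slc8a3 (6.16 ± 0.578) and Slc8a1 (4.33 ± 0.416 CPM per kb). With the longest transcript as the length, Atp2b2 moved ahead of Slc8a2 and Itpr1 ahead of Atp2b3 in this group, and the first and last places stayed with Atp2a2 and Slc8a1.

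Most exchanger RNA of the cortex was Slc8a2. It made up 88.7% ± 1.47 of the summed per-kb level of the 3 exchangers in P24 bulk Ctrl (SD, n = 4), with 6.68% ± 1.12 for Slc8a3 and 4.66% ± 0.464 for Slc8a1. Among the PMCA pumps Atp2b2 held 43.9% ± 0.435, Atp2b1 21.9% ± 0.644, Atp2b3 19.0% ± 0.440 and Atp2b4 15.2% ± 0.145. These shares and those below use the exonic union length and were not recomputed with the longest transcript. That transcript has 7130 bases against a union of 15218 for Atp2b1, and 9870 against 18319 for Itpr1. Pump and receptor shares therefore depend on the length used.

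The ages sit in separate tables that were scaled separately, so their levels stand side by side without a test. Itpr1 was 299 to 311 CPM in P17 Ctrl mice and 405 to 477 CPM in P24 Ctrl mice. Itpr2 was 134 to 153 CPM at P17 and 112 to 122 CPM at P24, again without overlap, so that Itpr2 made up 37.1% ± 1.40 of the IP3 receptor level per kb at P17 and 24.8% ± 1.80 at P24. Slc8a2 was 516 to 549 CPM at P17 and 392 to 492 CPM at P24. Atp2b4 was 235 to 255 CPM at P17 and 276 to 307 CPM at P24. For the other 6 genes the ages overlapped in Ctrl mice. The share of all genes without overlap between the ages was not computed. The differences are therefore not read as particular to these genes.

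**Figure D1:**
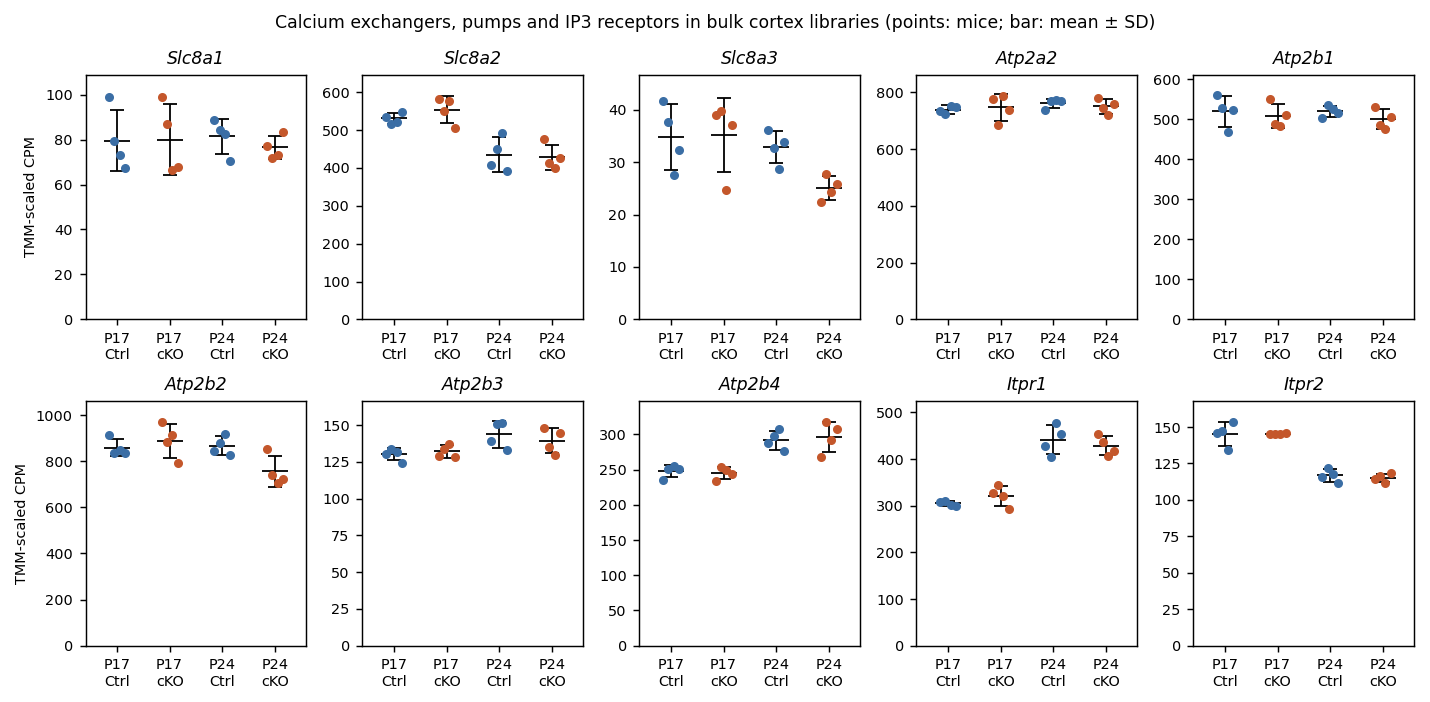
TMM-scaled CPM (linear axis from 0) of the 10 genes in bulk cortex at P17 and P24, with 1 point per mouse and the mean ± SD of 4 mice; blue is Ctrl and orange is cKO. The P24 cKO points of Slc8a3 (22.3 to 27.7 CPM) all lie under the P24 Ctrl points (28.8 to 36.1 CPM), while the other genes overlap between genotypes at each age.

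The next comparison asked whether the knockout changed the calcium genes in whole cortex at P24. Of the 10 genes, 1 fell and none rose at an adjusted p under 0.05, beside 1.72% of all 22495 genes tested that were called in either direction and 0.462% that were called lower. The gene that fell was Slc8a3, the exchanger NCX3, known from brain and skeletal muscle. Its level was 36.1, 32.8, 28.8 and 33.8 CPM in Ctrl mice 1 to 4 and 22.3, 27.7, 24.3 and 25.9 CPM in cKO mice 1 to 4. Every cKO mouse was below every Ctrl mouse. The log2 fold change was −0.39 (SE 0.080, 95% interval −0.56 to −0.21, edgeR quasi-likelihood test, adjusted p = 0.0309), a change of −23.7% in level.

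The direction for Slc8a3 was stable, while its call depended on the libraries used. Leaving out 1 library in turn kept the log2 fold change between −0.45 and −0.34, but the adjusted p ranged from 0.0182 to 0.105 and was under 0.05 in 3 of 8 cases. The call was lost without Ctrl replicate 1, 2 or 4 (0.0948, 0.0850 and 0.0840) and without cKO replicate 3 or 4 (0.105 and 0.0802), and also with both ages in one fit (0.159, edgeR throughout). Over the 7 other alternatives, that joint fit included, the adjusted p ran from 0.0026 to 0.159 (edgeR or DESeq2). It was under 0.05 in 6 of them, DESeq2 and edgeR's exact test included. In bulk RNA, fewer cells of a type and less RNA per cell cannot be told apart. None of the 12 neuronal and 7 oligodendrocyte markers was called in this comparison (median log2 fold changes −0.081 and 0.042), and of 9 astrocyte markers 3 rose and 3 fell. Their part in the level of Slc8a3 was not tested.

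Atp2b2, the most abundant PMCA transcript, had the next lowest estimate. Its level was 846, 877, 919 and 826 CPM in Ctrl and 853, 742, 705 and 724 CPM in cKO mice 1 to 4. In all, 3 of the 4 cKO mice lay below all Ctrl mice and cKO mouse 1 lay among them. The log2 fold change of −0.19 (SE 0.060, 95% interval −0.32 to −0.061) had an adjusted p of 0.169 by edgeR's quasi-likelihood test. Leaving out 1 library in turn gave adjusted p values of 0.00484 to 0.385 by that test, under 0.05 in 1 of 8 cases. That case left out cKO mouse 1, the overlapping mouse (log2 fold change −0.26, 950 genes called instead of 388), so it is not read as a call. Of the 7 other alternatives 0 gave an adjusted p under 0.05.

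The other 8 genes had log2 fold changes between −0.087 (Slc8a1) and 0.026 (Atp2b4), with overlapping genotypes throughout. Their 95% intervals excluded changes beyond −0.25 on the lower side, the bound for Slc8a1, and beyond 0.15 on the upper side, that of Atp2b4. The median over the 10 genes was −0.039, beside 0.00054 over all genes tested. Of 56 further calcium genes listed for this work, 52 were tested, none rose and 2 fell. These were Ryr1, a release channel best known from muscle (log2 fold change −0.55, adjusted p = 0.0331), and Plcb1, a phospholipase that makes IP3 (−0.26, adjusted p = 0.0310), both by edgeR's quasi-likelihood test.

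At P17 no gene of the group was called, beside 0.0943% of the 21201 genes tested, by edgeR's quasi-likelihood test, its exact test or DESeq2, and 0 of the 10 had an unadjusted p under 0.05. Replicate numbers paired the P17 mice, and with the number as a block 109 instead of 20 genes were called, still none of these 10. Slc8a3 was 41.7, 37.8, 27.5 and 32.3 CPM in P17 Ctrl mice 1 to 4 and 39.0, 39.9, 24.6 and 37.2 CPM in cKO mice 1 to 4. The genotypes overlapped, and the mouse numbered 3 was lowest in both. Its log2 fold change was 0.017 (95% interval −0.31 to 0.35), an interval that leaves out the P24 estimate of −0.39 but overlaps the P24 interval. That interval comes from the fit without the replicate number as a block, so it ignores the pairing. With the block the estimate was 0.021.

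The remaining P17 estimates ran from −0.023 for Atp2b1 to 0.087 for Itpr1, with a median over the 10 genes of 0.020 beside −0.0038 over all genes tested. None of the 52 further calcium genes tested was called at P17, and 0 of them had an unadjusted p under 0.05.

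Whether the genotype effect differed between the ages was tested in one fit of all 16 bulk libraries, without the replicate number as a block. None of the 10 genes passed (0.0470% of 23395 genes did), nor did any by DESeq2, though 2 had an unadjusted p under 0.05. The P24 effect of Slc8a3 was lower than its P17 effect by 0.41 on the log2 scale (SE 0.19, adjusted p = 0.760, quasi-likelihood test), and that of Atp2b2 was lower by 0.26 (SE 0.086, adjusted p = 0.585, quasi-likelihood test). A difference between the ages is therefore not shown for either gene.

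**Figure D2:**
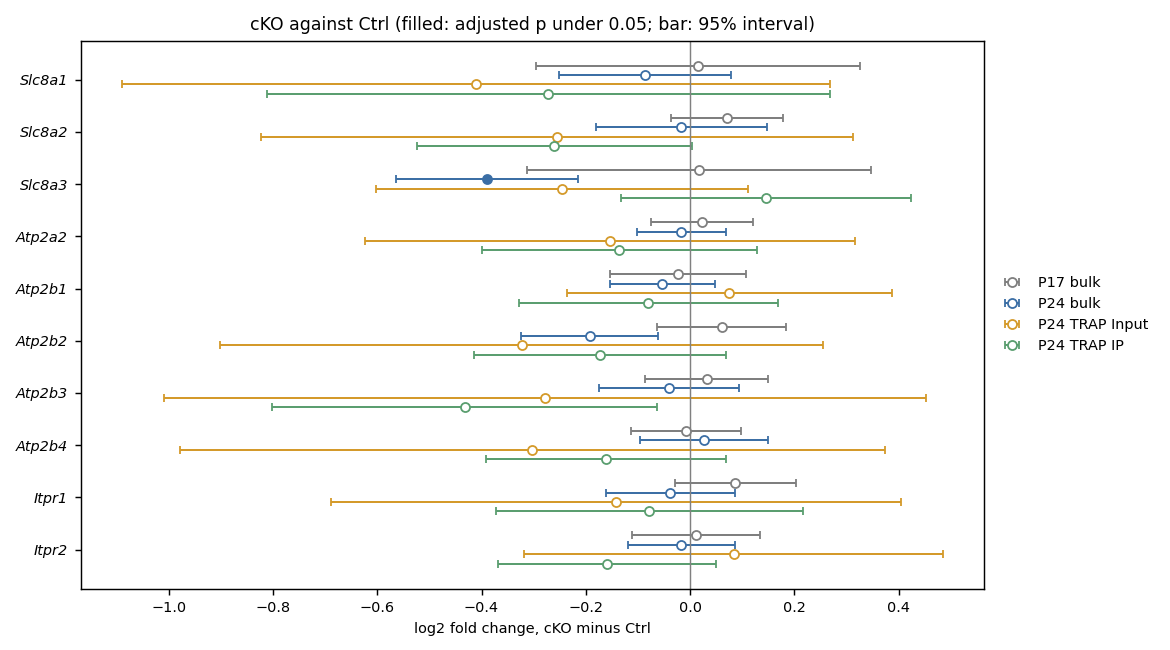
Log2 fold change (cKO minus Ctrl) of the 10 genes with 95% intervals in P17 bulk, P24 bulk, P24 TRAP Input and P24 TRAP IP; filled points have an adjusted p under 0.05. The P24 bulk point of Slc8a3 at −0.39 is the filled one, and the Input intervals are the widest.

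The TRAP libraries allowed the 10 genes to be placed between astrocytes and other cells. All 10 were lower in the IP than in the Input of Ctrl mice, beside 35.7% of all 24385 genes that were called lower and 71.0% called in either direction. Log2 fold changes ran from −3.10 to −0.64 with a median of −2.08, beside −0.029 over all genes tested. In the same comparison the astrocyte markers had a median of 3.72 and the neuronal markers a median of −1.70. In the cKO mice all 10 were lower again (28.5% of 24011 genes were called lower, 56.3% in either direction), with log2 fold changes from −3.22 to −0.89 and a median of −1.95. Without the Input library of cKO replicate 1 they ran from −3.53 (Atp2b3) to −0.80 (Itpr2), and all 10 were still lower. The IP and Input of a mouse are paired by design, and with the mouse as a block all 10 remained lower in both genotypes.

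Slc8a2, the main exchanger transcript, showed the lowest IP estimate in Ctrl mice. Its level was 211, 288 and 181 CPM in the Input of Ctrl mice 1 to 3 and 25.2, 27.6 and 29.0 CPM in their IP. Every IP library lay far below every Input library, with an IP level that was 0.116 of the Input level (log2 fold change −3.10, SE 0.17, adjusted p = 1.93e-08 by the quasi-likelihood test). The Slc8a3 level was 19.7, 20.8 and 19.1 CPM in Input and 7.75, 8.46 and 8.67 CPM in IP, a ratio of 0.405 (log2 fold change −1.30, SE 0.11, adjusted p = 9.10e-07 by the quasi-likelihood test). Slc8a1, known as the heart's exchanger and also made in brain, was 8.55, 10.1 and 7.81 CPM in Input and 2.31, 2.60 and 1.73 CPM in IP (log2 fold change −2.04, SE 0.19). Its IP values rest on 44 to 68 counts per Ctrl library, all above the floor of 3 counts.

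The make-up of the exchangers therefore differed between the fractions. Slc8a3 made up 6.60 to 9.30% of the summed per-kb exchanger level in the Input of Ctrl mice and 22.5 to 22.9% in their IP, and Slc8a2 made up 89.6 to 92.5% and 75.2 to 76.2%. The fractions did not overlap in either share. With 3 libraries against 3, the smallest p that an exact two-sided permutation test can give is 0.1, so the shares are given as values without a test.

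Among the pumps, Atp2a2 was 354, 419 and 334 CPM in the Input of Ctrl mice 1 to 3 and 150, 171 and 171 CPM in IP, a ratio of 0.431 (log2 fold change −1.21, SE 0.11). Even so, it stayed the most abundant of the 10 per kb in IP, at 26.97 ± 2.04 CPM per kb (SD, n = 3). Atp2b1, a PMCA pump of most cell types, was 179, 209 and 194 CPM in Input and 85.0, 88.9 and 74.8 CPM in IP, a ratio of 0.415 (log2 fold change −1.27, SE 0.10). Atp2b2 was 380, 460 and 337 CPM in Input and 53.0, 57.6 and 57.6 CPM in IP, a ratio of 0.139 (log2 fold change −2.85, SE 0.13).

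Atp2b2 and Atp2b3 had the lowest IP ratios among the pumps. Atp2b3, a pump known mainly from neurons, was 37.4, 42.5 and 35.9 CPM in Input and 4.46, 4.36 and 5.60 CPM in IP, a ratio of 0.121 (log2 fold change −3.05, SE 0.14). Atp2b4 was 123, 145 and 117 CPM in Input and 27.3, 31.5 and 32.5 CPM in IP (log2 fold change −2.12, SE 0.12). The order of the PMCA pumps per kb changed with the fraction: Atp2b2 held 47.3 to 51.5% of their summed level in Input and 32.5 to 34.4% in IP, and Atp2b1 19.4 to 22.6% in Input and 37.0 to 43.1% in IP.

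Itpr2, known as the main IP3 receptor of astrocytes, was the least depleted of the 10 genes in Ctrl mice. In cKO mice its log2 fold change of −0.89 (SE 0.15) did not differ beyond error from −0.92 (SE 0.17) for Slc8a3. Itpr2 was still lower in IP than in Input, whereas all 9 astrocyte markers were higher. Its level was 47.5, 48.95 and 63.1 CPM in the Input of Ctrl mice 1 to 3 and 34.3, 36.7 and 34.2 CPM in IP, a ratio of 0.641 (log2 fold change −0.64, SE 0.12, 95% interval −0.89 to −0.39, adjusted p = 0.000332 by the quasi-likelihood test). Itpr1 was 203, 238 and 188 CPM in Input and 54.7, 50.1 and 44.7 CPM in IP (log2 fold change −2.12, SE 0.12). The intervals of the 2 receptors did not overlap, since that of Itpr1 was −2.38 to −1.86. Itpr2 accordingly made up 20.3 to 29.4% of the IP3 receptor level per kb in Input and 43.7 to 48.7% in IP. Both its ratio and its share carry the doubt about Gm15720 given above.

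In the IP of Ctrl mice the order per kb was Atp2a2 (26.97), Atp2b1 (5.45), Slc8a2 (5.18), Atp2b2 (4.45), Itpr1 (2.72), Atp2b4 (2.48), Itpr2 (2.37), Slc8a3 (1.56), Atp2b3 (0.997) and Slc8a1 (0.118 CPM per kb). Atp2b1 and Slc8a2 overlapped, as did Itpr1, Atp2b4 and Itpr2, so their order is not fixed by these libraries. It also depends on the length used: with the longest transcript Atp2b1 was 11.6 and Slc8a2 5.18 CPM per kb, Itpr1 was 5.05, Itpr2 3.00 and Atp2b4 2.59 CPM per kb, and neither Atp2b1 and Slc8a2 nor Itpr1 and the latter pair overlapped. Bulk and TRAP libraries were prepared differently, so levels are not compared between them: Slc8a1, for one, was 70.4 to 88.7 CPM in P24 bulk Ctrl and 7.81 to 10.1 CPM in the TRAP Input of Ctrl mice.

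**Figure D3:**
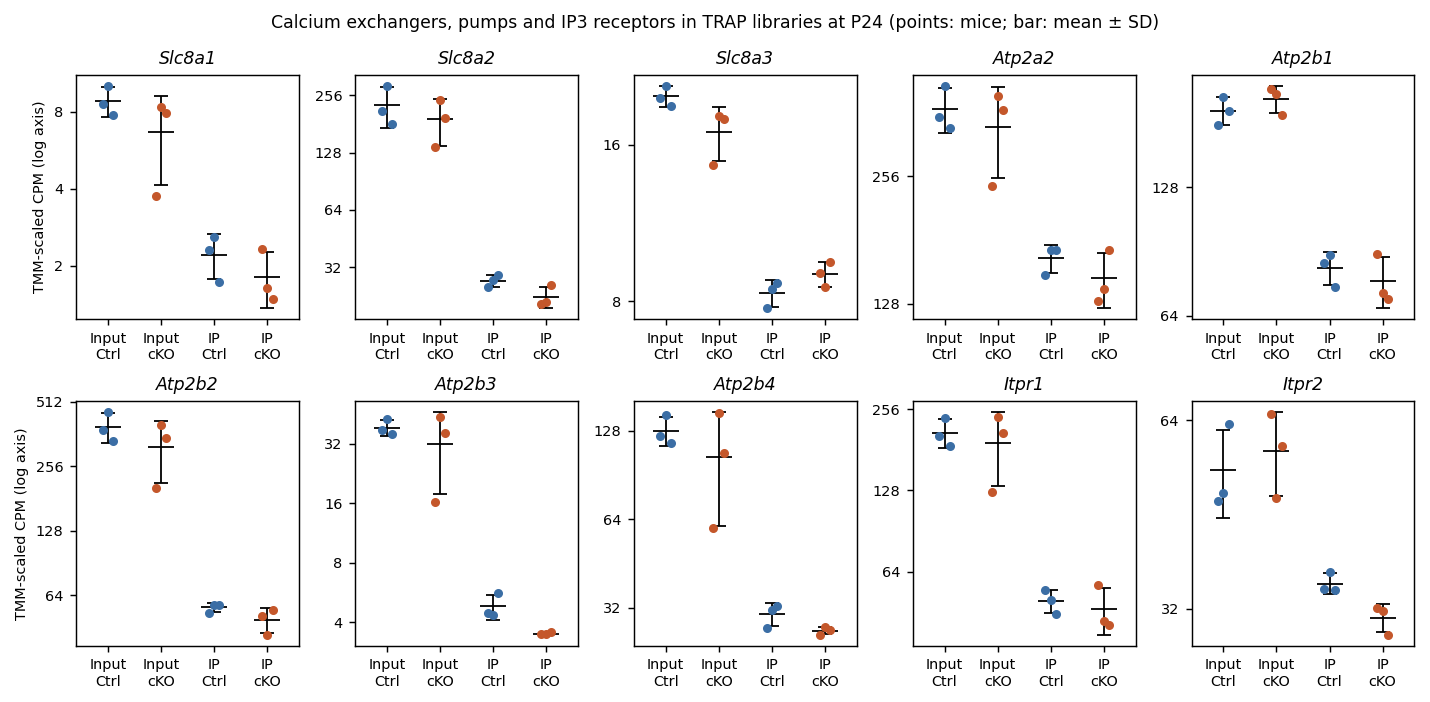
TMM-scaled CPM (log axis, a different range in each panel) of the 10 genes in TRAP Input and IP at P24, with 1 point per mouse and the mean ± SD of 3 mice; blue is Ctrl and orange is cKO. In all 10 panels both IP groups lie below both Input groups, and the lowest Input cKO point in 8 panels, Slc8a3 included, is that of replicate 1.

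**Figure D4:**
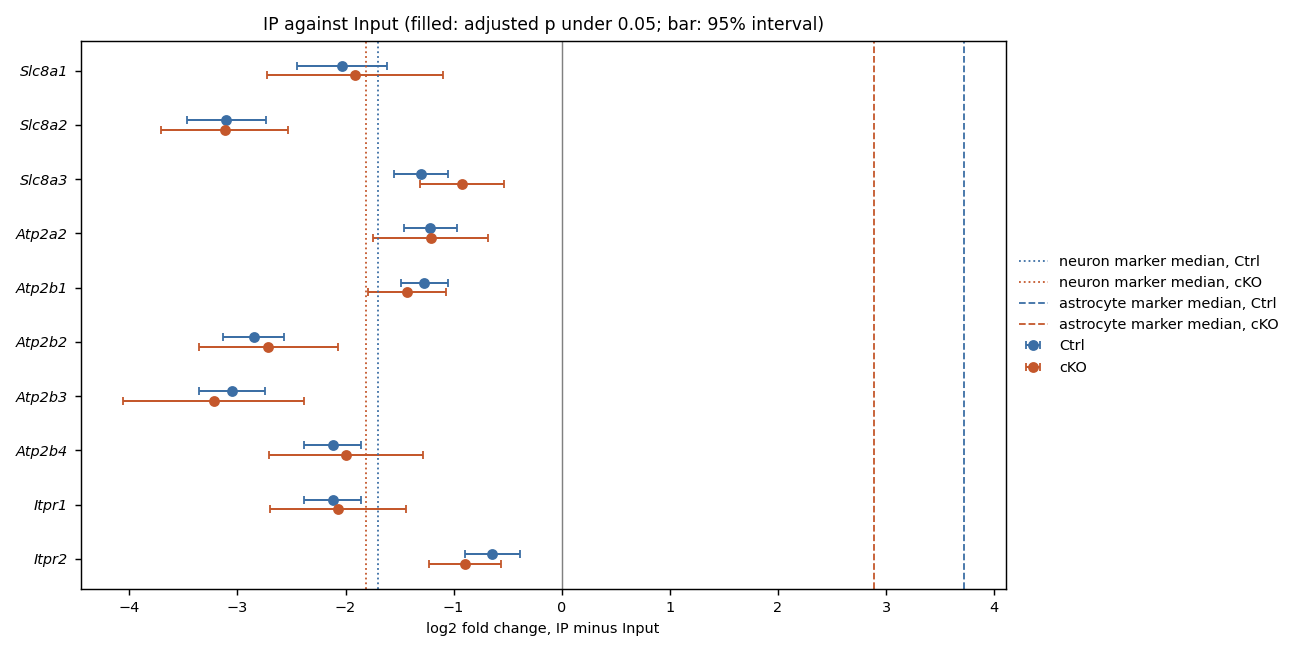
Log2 fold change (IP minus Input) of the 10 genes with 95% intervals in Ctrl and cKO mice, with dotted lines at the median of the neuronal markers (−1.70 in Ctrl, −1.81 in cKO) and dashed lines at that of the astrocyte markers (3.72 and 2.88). All points are filled (adjusted p under 0.05) and negative, and Itpr2 lies closest to 0, in cKO with Slc8a3 close beside it (−0.89 and −0.92).

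Other calcium genes did not all follow. Of the 54 tested in Ctrl mice, 12 were higher and 31 lower in IP, with a median of −0.63. The mitochondrial sodium-calcium exchanger Slc8b1 was higher in IP by 2.62 on the log2 scale, 6.15-fold (SE 0.26, adjusted p = 2.50e-06, quasi-likelihood test), in contrast to the 3 plasma membrane exchangers. The phospholipase Plcd4 was higher by 2.28 (adjusted p = 1.25e-07, quasi-likelihood test). The lowest were the T-type calcium channels Cacna1i (−3.37, adjusted p = 3.26e-08) and Cacna1g (−2.79, adjusted p = 6.47e-08, quasi-likelihood test). In cKO mice 9 of the 54 were higher and 29 lower, with Slc8b1 again higher (1.76, adjusted p = 0.000464, quasi-likelihood test). These cKO values include the outlying Input library.

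The following comparison asked whether the RNA bound to tagged ribosomes changed with the knockout. None of the 10 genes was called in the IP of cKO against Ctrl mice, although 20.0% of all 23864 genes were. The same count of 0 came from edgeR's exact test and from DESeq2, and 1 gene, Atp2b3, had an unadjusted p under 0.05. With the replicate number as a block 1 of the 10, Slc8a2, was called lower (adjusted p = 0.0498, quasi-likelihood test), among 6735 genes called. The median of the 10 was −0.16, beside −0.015 over all genes tested. Without composition factors (library size alone) the median of all genes moved to −0.13 and the share of called genes that were higher from 58% to 36%, and 2 of the 10 genes, Slc8a2 and Atp2b3, were then called lower (adjusted p = 0.0468 and 0.0384, quasi-likelihood test).

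Atp2b3 was 4.46, 4.36 and 5.60 CPM in the IP of Ctrl mice 1 to 3 and 3.48, 3.48 and 3.55 CPM in that of cKO mice. The cKO mice lay below the Ctrl mice, with a log2 fold change of −0.43 (SE 0.17, 95% interval −0.80 to −0.064, adjusted p = 0.0931 by the quasi-likelihood test). It is a gene of mostly neuronal expression at a low IP level, 79 to 142 counts per library. Slc8a2 was 25.2, 27.6 and 29.0 CPM in Ctrl and 20.5, 21.0 and 25.7 CPM in cKO, with only cKO mouse 3 reaching into the Ctrl range (log2 fold change −0.26, SE 0.12, adjusted p = 0.152 by the quasi-likelihood test). Leaving out 1 library in turn gave adjusted p values of 0.0463 to 0.386 by that test, under 0.05 in 1 of 6 cases. That case left out this same mouse, so it is not read as a call. Beside these, 2 of the 12 neuronal markers were lower in the IP of cKO mice and none higher (median −0.23), with summed levels of 2976 to 3489 CPM in Ctrl and 2798 to 3038 CPM in cKO. The part of neuronal RNA in the IP values of Slc8a2 and Atp2b3 was not tested.

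Itpr2 was 34.3, 36.7 and 34.2 CPM in Ctrl and 32.0, 31.7 and 29.1 CPM in cKO IP. The groups did not overlap, yet the log2 fold change of −0.16 (SE 0.095, 95% interval −0.37 to 0.050) had an adjusted p of 0.271 by the quasi-likelihood test. Slc8a3, the gene that fell in bulk cortex, was 7.75, 8.46 and 8.67 CPM in Ctrl IP and 9.06, 8.51 and 9.52 CPM in cKO IP. Its groups overlapped and its log2 fold change was 0.15 (SE 0.13, 95% interval −0.13 to 0.42, adjusted p = 0.464 by the quasi-likelihood test), an interval that excludes the P24 bulk estimate.

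Within the exchangers, Slc8a3 made up 22.5 to 22.9% of the per-kb level in Ctrl IP and 26.5 to 29.7% in cKO IP, and Slc8a2 75.2 to 76.2% and 68.1 to 72.4%. Neither share overlapped between genotypes. Slc8a1 held only 1.27 to 1.99% in Ctrl IP and 1.17 to 2.16% in cKO IP, so the 2 shares are near complements and count as 1 observation. The level of Slc8a3 itself overlapped between genotypes. An exact two-sided permutation test of 3 against 3 libraries cannot go below 0.1, and how often other genes separate in this way was not computed. The remaining IP estimates were −0.27 for Slc8a1, −0.17 for Atp2b2, −0.16 for Atp2b4, −0.14 for Atp2a2, −0.080 for Atp2b1 and −0.078 for Itpr1, with standard errors of 0.10 to 0.25.

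**Figure D5:**
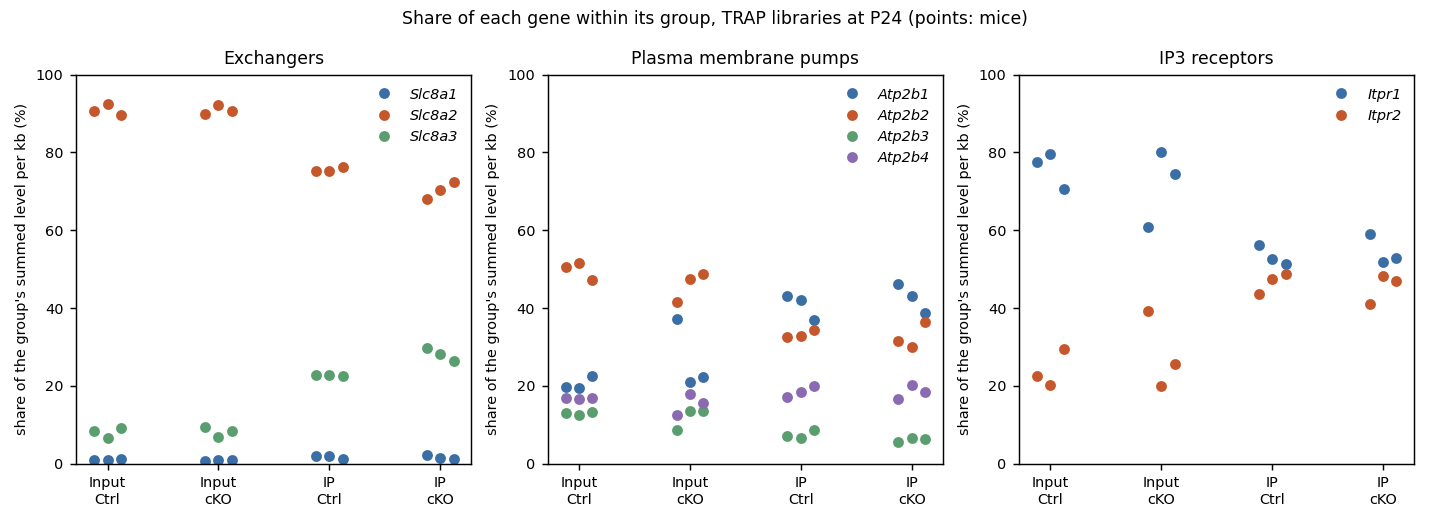
Share (%) of each gene in the summed per-kb level of its group, the exchangers, PMCA pumps or IP3 receptors, with 1 point per mouse in TRAP Input and IP of each genotype. Slc8a3 stands at 6.60 to 9.48% in Input and 22.5 to 29.7% in IP, and Itpr2 reaches 41.0 to 48.7% of the receptors in IP.

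In the further calcium genes, 1 rose and 5 fell in the IP of cKO mice out of 52 tested, with a median of −0.12. Smdt1, a subunit of the mitochondrial calcium uniporter, rose by 0.51 on the log2 scale (SE 0.11, adjusted p = 0.00698, quasi-likelihood test). Slc24a3, a potassium-dependent sodium-calcium exchanger, fell by 0.53 (SE 0.10, adjusted p = 0.00496, quasi-likelihood test), and Itpka, a kinase that phosphorylates IP3, fell by 0.49 (SE 0.13, adjusted p = 0.0203, quasi-likelihood test). With library size alone these comparisons move with the median of all genes, as given above.

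In the Input of cKO against Ctrl mice none of the 10 was called, by the quasi-likelihood test, the exact test or DESeq2, and 0 had an unadjusted p under 0.05. Of all 23828 genes, 0.109% were called. Here 1 library set the estimates. In cKO replicate 1 Atp2b3 was 16.2 CPM, against 43.6 and 36.4 CPM in the other cKO mice and 35.9 to 42.5 CPM in Ctrl. Atp2b4 was 59.6 CPM there, against 147 and 108 CPM in the other cKO mice, Itpr1 126 against 239 and 210 CPM, Atp2b2 202 against 401 and 346 CPM, and Slc8a1 3.77 against 8.37 and 7.91 CPM. Atp2b1 (218 against 212 and 190 CPM) and Itpr2 (65.4 against 48.0 and 58.3 CPM) were not low in that library.

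With all 6 Input libraries the log2 fold changes ran from −0.41 (Slc8a1) to 0.084 (Itpr2), with a median of −0.25, and without cKO replicate 1 they ran from −0.14 (Slc8a3) to 0.094 (Itpr1). Slc8a3 was 19.7, 20.8 and 19.1 CPM in Ctrl and 14.6, 18.2 and 17.97 CPM in cKO Input. Its genotypes did not overlap, with a log2 fold change of −0.25 (SE 0.16, adjusted p = 0.812 by the quasi-likelihood test) with the library and −0.14 without it. The astrocyte markers summed to 966 to 1117 CPM in Ctrl and 1554 to 1959 CPM in cKO Input, and the neuronal markers to 7027 to 8012 and 7259 to 7749 CPM. Of the 9 astrocyte markers only 1 was called, as higher. Their log2 fold changes ran from −0.11 (Slc1a2) to 1.53 (Gfap) with a median of 0.77, so the sum does not describe each marker. None of the 54 further calcium genes tested was called by the quasi-likelihood test, and 0 had an unadjusted p under 0.05.

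Whether genotype changed the difference between IP and Input was tested over all 12 TRAP libraries, and none of the 10 genes passed (0.0582% of 25768 genes did), with 0 at an unadjusted p under 0.05 and 0 by DESeq2. With all libraries the estimate farthest from 0 was that of Slc8a3, whose IP to Input difference was 0.39 less negative in cKO on the log2 scale (SE 0.19, 95% interval −0.016 to 0.79, adjusted p = 0.591 by the quasi-likelihood test). Itpr2 stood at −0.25 (SE 0.20) and the other 8 between −0.16 and 0.14. Without the outlying Input library none of the 10 passed either, but the estimates changed. Atp2b3 was then farthest from 0 at −0.49 (adjusted p = 0.202, quasi-likelihood test), Slc8a3 was 0.28 (adjusted p = 0.398, quasi-likelihood test), and the other 8 ran from −0.22 (Slc8a2) to −0.11 (Atp2b2). Slc8a1, Atp2a2, Atp2b2, Atp2b4 and Itpr1 turned from positive to negative, so no direction is given for them. These comparisons share libraries with those above, so they are not independent of them. Their fits had no term for the mouse, and with the mouse as a block over all 12 libraries none of the 10 genes passed either.

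Over the 12 TRAP libraries the genes whose level moved most closely with each of the 10 were found among 18508 genes, by Pearson's r of log2 (CPM + 0.5). The 12 points are 6 IP and Input pairs, the outlying Input library included, so r mostly follows the fraction and is given as a description. Slc8a2 was closest to the NMDA receptor subunit Grin1 and the vesicular glutamate transporter Slc17a7 (r = 0.999 for both), and Slc8a1 to Grin2b and D130043K22Rik (0.994 for both). Slc8a3 was closest to Kif5a and Gm45883 (0.995 for both), Atp2a2 to Man2a2 and Atxn2l (0.994 for both), and Itpr1 to Hhat (0.997) and the release channel Ryr2 (0.996). Among the PMCA pumps, Atp2b1 was closest to Cdr2 (0.995) and Kit (0.993), Atp2b2 to Cnnm1 and Brsk2 (0.998 for both), Atp2b3 to Rimbp2 and Gm13524 (0.997 for both), and Atp2b4 to Plxna2 (0.997) and Bsn (0.996). Itpr2 was closest to Gm15720 (0.983), the pseudogene inside its own locus, and to Gm7308 (0.980).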

How the data were processed

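Raw read counts per Ensembl gene, 53342 identifiers per table, were deposited by the authors as 3 tables (P24 bulk, P17 bulk and P24 TRAP). Per the study's methods, reads were aligned to mm10 with STAR in Galaxy and tested with edgeR; the counting tool, its strand setting and the annotation are not given in the sources used here. Bulk cDNA was primed with oligo-dT and TRAP libraries were made with a NEBNext kit after oligo-dT bead selection, so the 2 sets differ in preparation.

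Columns were matched to samples by name and table (28 libraries). Genes were filtered with filterByExpr (minimum count 10, minimum total 15, proportion 0.7), scaled by TMM and tested with edgeR 4.0.16 (glmQLFit and glmQLFTest, R 4.3.3, two-sided) over the whole table, with Benjamini-Hochberg adjustment over all genes tested and a threshold of 0.05. Standard errors are the log2 fold change over the square root of F, and 95% intervals use the t distribution with the moderated degrees of freedom of the fit. Per-kb levels divide CPM by the exonic union length (GENCODE vM21). Alternatives were RLE factors, library size alone, no filter beyond 1 count, the edgeR exact test, DESeq2 1.42.0, the replicate number (or mouse) as a block, all libraries in one fit, and each library left out. The test was checked on simulated data.

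Same-numbered P17 mice deviated together (r of residuals 0.168 to 0.407, against at most 0.057 for different numbers), so the numbers were taken as pairs there. At P24 r was 0.050 to 0.236, against at most 0.245 for different numbers. In IP it was 0.072 to 0.154, against at most −0.020, and in Input −0.065 to 0.131, against at most 0.087. Not every pair passed 0.1 in these sets, so they were not taken as pairs, although in IP same numbers always ranked above different ones. Between Input and IP libraries of the same mouse number r was 0.081 to 0.134 in Ctrl, against at most −0.0082 for different numbers. In cKO it was −0.123 to 0.167, against up to 0.264 for different numbers, so the residuals do not show that pairing in cKO. The 36 replicate pairs differed by more than sampling noise (chi-square per degree of freedom 2.79 to 89.8). Whether littermates share a replicate number is not given. In the main bulk fits and those within IP or within Input, each library is a different mouse and p-values measure the spread between mice. The main fits of IP against Input and of the fraction by genotype difference had no term for the mouse. They took the IP and Input libraries of a mouse as independent, so their standard errors, intervals and p-values ignore that pairing.

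The 10 genes, the 56 further calcium genes and the marker lists were chosen with earlier results of these data known. Named in the text are the 10 genes throughout, of the further calcium genes up to 2 per direction with the largest called change (average abundance no less than 1 on the log2 CPM scale), and the 2 genes closest to each of the 10 over the TRAP libraries. Overlapping genes and markers were named beyond that rule. The deleted gene and its values are not reported here.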

Additional observations from a re-analysis of the deposited data

Results flagged for a closer look

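Of 40 sets of 4 bulk libraries (10 genes in 4 groups), 1 held a library far from the others by Dixon's ratio, the gap of an extreme library to its neighbour over the whole range, set against its 95% critical value. In P24 bulk Ctrl, Atp2a2 was 739 CPM in replicate 1 and 768, 772 and 768 CPM in replicates 2 to 4, a ratio of 0.882. Chance marks about 1 in 20 such sets. TRAP groups hold 3 libraries and were not examined this way, so the low Input library of cKO replicate 1 is given in the report by its values alone.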

How the results depend on the processing

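Among the log2 fold changes of the 10 genes recomputed under alternatives, 1132 kept their direction and their side of the threshold, 6 lost a call, 5 gained one and 57 reversed, all 57 uncalled before and after. The 6 losses are those of Slc8a3 at P24 given in the report. Of mean levels with library size alone 2 of 80 moved by more than the spread between mice, and of orders per kb with the longest transcript 28 of 80 moved. The causes were not tested.

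At P24, 618 genes were called with no filter beyond 1 count, 598 by DESeq2 and 608 by the exact test, against 388, and 0 of the 10 genes with all libraries in one fit. Leaving out 1 library gave 0 to 2 of the 10 genes and 216 to 950 genes, with log2 fold changes of −0.074 to 0.046 for Slc8a2, −0.039 to 0.0016 for Atp2a2, −0.0037 to 0.068 for Atp2b4, −0.077 to 0.0007 for Itpr1 and −0.038 to 0.0050 for Itpr2. At P17, 55 genes were called with no filter, 41 by DESeq2, 109 with the replicate block and 56 by the exact test, against 20. With 1 library left out, P17 gave 11 to 19 genes, with −0.10 to 0.14 for Slc8a1, −0.078 to 0.16 for Slc8a3, −0.071 to 0.016 for Atp2b1, −0.034 to 0.014 for Atp2b4 and −0.024 to 0.039 for Itpr2.

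In IP, 2 of the 10 genes were called with library size alone and 1 with the replicate block (Slc8a2, −0.27, edgeR adjusted p = 0.0498), and 1684 genes with all libraries in one fit, against 4782. Leaving out 1 library gave 0 to 1 of the 10 genes and 2633 to 4810 genes, with −0.21 to 0.014 for Itpr1. In Input, 112 genes were called with no filter, 127 by DESeq2, 8 with the block, 136 by the exact test and 127 with all libraries in one fit, against 26. With 1 library left out, Input gave 4 to 112 genes, with −0.30 to 0.043 for Atp2a2, −0.57 to 0.047 for Atp2b3, −0.35 to 0.094 for Itpr1 and −0.0070 to 0.23 for Itpr2. In IP every library correlated best with its own number, a hint of pairing from the data and not from the design.

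For the fraction by genotype difference, 189 genes were called with no filter, 284 by DESeq2 and 6 with the mouse as a replicate block, against 15. Atp2a2 was −0.083 and Itpr1 −0.035 with library size alone, Atp2a2 −0.020 with no filter and Slc8a2 0.0037 with the block. Leaving out 1 library gave 3 to 432 genes, with −0.16 to 0.33 for Slc8a1, −0.23 to 0.20 for Slc8a2, −0.19 to 0.15 for Atp2a2, −0.11 to 0.35 for Atp2b2, −0.49 to 0.13 for Atp2b3, −0.16 to 0.46 for Atp2b4 and −0.18 to 0.25 for Itpr1. For the age by genotype difference, 62 genes were called with no filter, 54 by DESeq2 and 55 with the block, against 11. Leaving out 1 library gave 4 to 149 genes, with −0.22 to 0.014 for Slc8a1, −0.068 to 0.011 for Atp2b1 and −0.061 to 0.0014 for Itpr2. The replicate block changed no other call of the 10 genes. Depth limits mainly Slc8a1 and Atp2b3 in IP, with 37 to 68 and 79 to 142 counts per library.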
